A study of Mus musculus with 6 samples.

Results

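The AP-1 transcription factor subunits were followed in mouse cumulus cells, the somatic cells around the oocyte in an antral follicle. The 9 members were set by gene symbol, namely Fos, Fosb, Fosl1, Fosl2, Jun, Junb, Jund, Atf3 and Maff, and all 9 were measured, by 13 of the 34958 probe sets that carry 1 gene symbol (9 of 18194 genes). Wild-type female mice received 5 IU of equine chorionic gonadotropin (eCG) at 21 days of age, a hormone that makes follicles grow, and 46 h later they either got no further hormone (hCG-0h, 3 samples) or 5 IU of human chorionic gonadotropin (hCG), the ovulatory hormone, for 6 h (hCG-6h, 3 samples). Age labels give 23 days at isolation. Both groups thus carried the eCG treatment. Each sample pooled the cumulus cells of 50 cumulus-oocyte complexes on 1 array, and the medium held 5 µM milrinone, which blocks oocyte maturation. In the hCG-6h group the description of sample 2 says 7 h and that of sample 3 says 8 h, although their titles say 6 h. Nothing in the labels says that the samples came from separate animals, so p-values measure only the spread between these samples, which may be technical. No group was kept without hCG for the same 6 h, so hCG and elapsed time cannot be told apart.

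AP-1 is a family of dimers of basic leucine zipper (bZIP) proteins, in which a FOS-type subunit pairs with a JUN-type subunit, or 2 JUN-type subunits pair, on a short DNA site. Several FOS and JUN genes are immediate early genes, switched on within minutes by growth factors, cyclic AMP or stress, and their mRNAs are short-lived. In ovarian follicles the ovulatory hormone acts through cyclic AMP and through EGF-like factors that activate MAP kinases, both of which are known to feed into AP-1 genes.

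Levels are log2 units of normalised array signal, and a change is hCG-6h minus hCG-0h, so that 1 unit is a 2-fold difference. Over all genes the limma fit, with p-values adjusted by Benjamini-Hochberg over 18194 genes and a threshold of 0.05, called 10.8% higher and 10.5% lower at hCG-6h. The cumulus and granulosa markers averaged 11.56 to 11.61 in the hCG-0h samples and 10.10 to 10.29 in the hCG-6h samples, with 6 of 11 measured members lower and none higher by limma, or 7 and 0 at an unadjusted p under 0.05. The 6 that fell were Slc38a3 (13.0-fold lower), Fshr (9.32-fold), Amhr2 (6.29-fold), Npr2 (4.48-fold), Nr5a2 (2.96-fold) and Fst (1.33-fold). Among those not called, Inha, the inhibin alpha subunit, read 13.36 to 13.49 over the 6 samples. Foxl2, a granulosa identity factor that was not called either, read 9.47 to 10.40. Oocyte markers averaged 5.00 to 5.20 and 5.23 to 5.33, with 0 of 12 called by limma (2 higher and 0 lower at an unadjusted p under 0.05), and leukocyte markers 5.68 to 5.83 and 5.73 to 5.82. Endothelial markers averaged 5.02 to 5.38 and 5.39 to 5.52, theca and stroma markers 6.12 to 6.53 and 6.12 to 6.28, and erythrocyte markers 6.22 to 6.32 and 5.68 to 5.78. Single markers of other cell types fell: Fcer1g of 13 leukocyte markers (1.84-fold lower), Ptch1 of 9 theca and stroma markers (1.89-fold lower) and Alas2 of 2 erythrocyte markers (2.54-fold lower, limma adjusted p = 0.0419, 0.00293 and 0.00125). None of the 8 endothelial markers was called by limma (2 higher and 0 lower at an unadjusted p under 0.05). By that unadjusted measure 3 leukocyte markers were higher and 2 lower. For theca and stroma the counts were 0 and 2, and for erythrocytes 0 and 1. Some rises that limma did not call also had no overlap between groups. The largest were those of Cdh5 of endothelium (3.1-fold), Dppa3 of oocytes (1.94-fold) and Cd3e of leukocytes (1.9-fold, limma adjusted p = 0.053, 0.0851 and 0.0651). The part of these cell types in the results was not tested. In bulk samples such as these, fewer cells of a type and less RNA per cell cannot be told apart.

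The members went in different directions. Fosl1 and Junb rose and Fosl2 and Maff fell, while Fos, Fosb, Jun, Jund and Atf3 did not pass the test. That is 2 of 9 up and 2 of 9 down, beside 21.3% of all genes called in either direction. The median change of the members was 0.50, against 0.0067 over all genes. In 6 of 9 members the groups did not overlap, beside 37.9% of all genes: Fos, Fosl1, Jun and Junb were higher throughout (19.3% of all genes) and Fosl2 and Maff lower (18.7%). The count of risers depended on hCG-0h sample 3: without it Fos and Jun passed too and 4 members rose. Without hCG-6h sample 2, Atf3 passed and 3 rose.

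**Figure D1:**
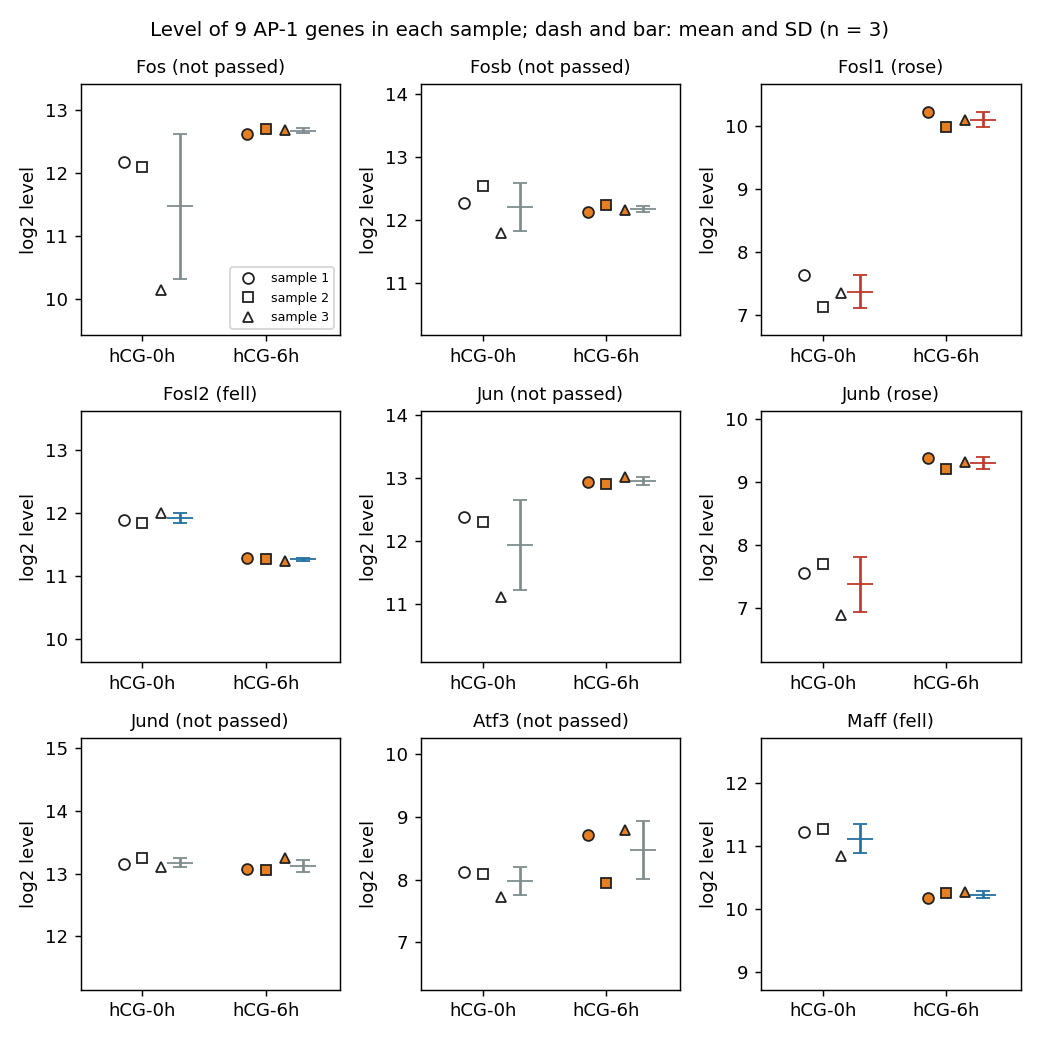
Log2 level of each AP-1 gene (y axis, 4 units tall in every panel) in the 3 hCG-0h samples (open) and 3 hCG-6h samples (filled), with the group mean and SD beside them. Fosl1 and Junb lie well above their hCG-0h values at hCG-6h, Fosl2 and Maff lie below, and the triangle of hCG-0h sample 3 stands low for Fos (10.14) and Jun (11.11).

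Upstream sequence is shown for 7 members because hCG signals through cyclic AMP, whose factor CREB is known to bind the cyclic AMP response element (CRE). RefSeq promoter entries (GRCm38.p6) matched 8 of the 9 members, all but Fosl1, with 10 start sites in all, of which 3 belong to Maff. Jund had an entry too, but its window is not printed. Each line gives the bases just before the annotated start, 5′ to 3′ on the gene's strand, with the CRE half-site TGACG or its reverse complement CGTCA in capitals. The windows of the first 6 are chr12:85473760-85473889 (+) for Fos, chr7:19310046-19310175 (-) for Fosb, chr8:84978749-84978878 (-) for Junb, chr1:191183334-191183463 (-) for Atf3, chr4:95052223-95052352 (-) for Jun and chr5:32136342-32136471 (+) for Fosl2.
Fos: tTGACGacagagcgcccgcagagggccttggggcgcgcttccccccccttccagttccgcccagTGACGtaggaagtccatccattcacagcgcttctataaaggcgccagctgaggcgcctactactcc
Fosb: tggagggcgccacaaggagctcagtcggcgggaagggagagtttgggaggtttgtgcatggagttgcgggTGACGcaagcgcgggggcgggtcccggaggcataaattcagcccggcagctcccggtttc
Junb: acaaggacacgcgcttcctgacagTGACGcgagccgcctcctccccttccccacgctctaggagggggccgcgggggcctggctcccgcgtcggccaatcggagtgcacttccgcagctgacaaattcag
Atf3: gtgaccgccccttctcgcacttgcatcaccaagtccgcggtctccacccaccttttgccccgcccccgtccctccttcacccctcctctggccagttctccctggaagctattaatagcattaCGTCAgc
Jun: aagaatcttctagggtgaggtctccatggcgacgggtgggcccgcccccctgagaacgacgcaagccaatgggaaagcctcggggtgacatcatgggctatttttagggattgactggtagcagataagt
Fosl2: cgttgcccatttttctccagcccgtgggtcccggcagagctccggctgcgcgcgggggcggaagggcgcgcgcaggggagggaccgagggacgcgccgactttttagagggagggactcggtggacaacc
Counting back from -1 at the base before the start, the half-site began at -129 and -66 in Fos, -60 in Fosb, -106 in Junb and -7 in Atf3, while the Jun and Fosl2 windows held none. The unprinted Jund window held none either. Of the 3 starts of Maff, start 2 had the whole palindrome TGACGTCA, which contains the half-site on both strands, from -29 to -22 and is printed next, start 3 had a half-site (CGTCA) from -122 to -118, and start 1 had none.
Maff: gTGACGTCActgcatgactgggtttttatg
This last stretch is chr15:79347490-79347519 (+). Among all 32851 promoter entries, searched on both strands over 250 bases before the start, 17.8% held TGACG and 1.55% held TGACGTCA. Over 130 bases, the length of the printed windows other than that of Maff, the shares were 12.2% and 1.3%. The AP-1 site TGANTCA was found in 6.75% of the entries over 250 bases and in 3.7% over 130. For the CArG box, the site of serum response factor, the shares were 1.47% and 0.81%. Neither occurred in the 250 bases before any of the 10 starts of the members. Only these exact patterns were searched, so variant sites and sites further upstream would be missed. A match is a run of letters, not a measured binding site.

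Among the FOS-type subunits, Fosl1, which encodes FRA-1, changed most. It read 7.64, 7.13 and 7.35 in hCG-0h samples 1 to 3 and 10.22, 9.99 and 10.09 in hCG-6h samples 1 to 3. All 3 hCG-6h values lay more than 2 units above every hCG-0h value. The rise was 6.62-fold (log2 change 2.73 ± 0.15, SE, limma adjusted p = 7.98e-05). A second Fosl1 probe set went from 5.21, 6.31 and 6.29 to 9.52, 9.48 and 9.43, an 11.6-fold rise (adjusted p = 0.000503 in limma's fit over all 34958 probe sets). Its value in hCG-0h sample 1 lay under 6.08, the level below which genes were treated as dim, and the fold of so dim a signal is approximate.

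Fosl2, which encodes FRA-2, moved the other way. Its brighter probe set read 11.89, 11.84 and 12.00 at hCG-0h and 11.28, 11.27 and 11.24 at hCG-6h. The groups did not overlap, and Fosl2 was 1.57-fold lower after hCG (a log2 change of -0.65 ± 0.10, SE, limma adjusted p = 0.00418). The other probe set, at 10.97, 10.98 and 10.81 before and 10.14, 10.26 and 10.18 after, was 1.65-fold lower (limma adjusted p = 0.00512). The fall was small, but wider than the SDs of 0.08 and 0.02 within the groups (n = 3 each).

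Fos, the founding subunit, already read high before hCG in most of the group. Its values were 12.17, 12.09 and 10.14 at hCG-0h and 12.62, 12.70 and 12.68 at hCG-6h. The 3 hCG-6h values stood within 0.08 of one another and above every hCG-0h value, whereas hCG-0h sample 3 lay about 2 units under its group mates. The SD was 1.15 at hCG-0h and 0.04 at hCG-6h (n = 3 each). With all samples the log2 change was 1.20 ± 0.52 (SE, 95% interval -0.04 to 2.44) and did not pass (limma adjusted p = 0.163). Without hCG-0h sample 3 it was 0.54 ± 0.11 (SE) and passed (limma adjusted p = 0.0271).

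Fosb, a close relative of Fos, read 12.27, 12.54 and 11.79 at hCG-0h and 12.13, 12.23 and 12.16 at hCG-6h. The hCG-6h values fell inside the hCG-0h range. Its log2 change was -0.03 ± 0.19 (SE), with a 95% interval of -0.48 to 0.43 (limma adjusted p = 0.947). The sign was not fixed, being -0.23 without hCG-0h sample 3 and 0.14 without hCG-0h sample 2, neither past the threshold.

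Of the JUN-type subunits, Junb rose. It read 7.55, 7.69 and 6.88 at hCG-0h and 9.38, 9.20 and 9.31 at hCG-6h, with no overlap. The rise was 3.79-fold (log2 change 1.92 ± 0.22, SE, limma adjusted p = 0.00125), and without hCG-0h sample 3, again the lowest of its group, the log2 change was 1.68 (limma adjusted p = 0.000956). Junb encodes a JUN protein that is a weaker activator than JUN in many settings.

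Jun lay on the border of the test. Its brighter probe set read 12.38, 12.30 and 11.11 at hCG-0h and 12.94, 12.90 and 13.02 at hCG-6h. As for Fos, the groups did not overlap and hCG-0h sample 3 stood more than 1 unit low. The log2 change of 1.02 ± 0.33 (SE, 95% interval 0.24 to 1.81) did not pass (limma adjusted p = 0.0732). The other Jun probe set, at 10.34, 10.35 and 9.0 before and 11.22, 11.32 and 11.30 after, was 2.61-fold higher and passed narrowly in limma's fit over probe sets (adjusted p = 0.0411). That call ended without hCG-0h sample 1 (limma adjusted p = 0.0516) and without hCG-6h sample 1, 2 or 3 (limma adjusted p = 0.0953, 0.104 and 0.105). Without hCG-0h sample 3 the brighter probe set passed, at a smaller log2 change of 0.61 ± 0.11 (SE, limma adjusted p = 0.0189).

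Jund, the JUN gene that many cells express steadily, read 13.15, 13.25 and 13.11 at hCG-0h and 13.07, 13.06 and 13.24 at hCG-6h. All 6 values of this probe set lay within 0.19. The 95% interval of its log2 change ran from -0.30 to 0.20 (limma adjusted p = 0.811). A second, much dimmer Jund probe set read 6.89, 7.58 and 6.72 before and 6.91, 7.10 and 7.67 after, and its log2 change of 0.16 ± 0.29 (SE) did not pass either (limma adjusted p = 0.756).

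The remaining members are bZIP factors outside the FOS and JUN families. Maff encodes a small MAF protein, which has no activation domain of its own and dimerises with other bZIP proteins. It read 11.23, 11.27 and 10.85 at hCG-0h and 10.17, 10.26 and 10.27 at hCG-6h. The groups did not overlap, and Maff was 1.84-fold lower after hCG (a log2 change of -0.88 ± 0.14, SE, limma adjusted p = 0.00509). Its fall was larger, at -1.02, without hCG-0h sample 3.

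Atf3, a stress-induced factor that can pair with JUN proteins, read 8.12, 8.09 and 7.72 at hCG-0h and 8.70, 7.94 and 8.78 at hCG-6h. Here it was hCG-6h sample 2 that stood apart, down among the hCG-0h values. The log2 change of 0.50 ± 0.25 (SE, 95% interval -0.09 to 1.08) did not pass (limma adjusted p = 0.218). Without hCG-6h sample 2 it was 0.76 ± 0.16 (SE) and passed (limma adjusted p = 0.0295).

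**Figure D2:**
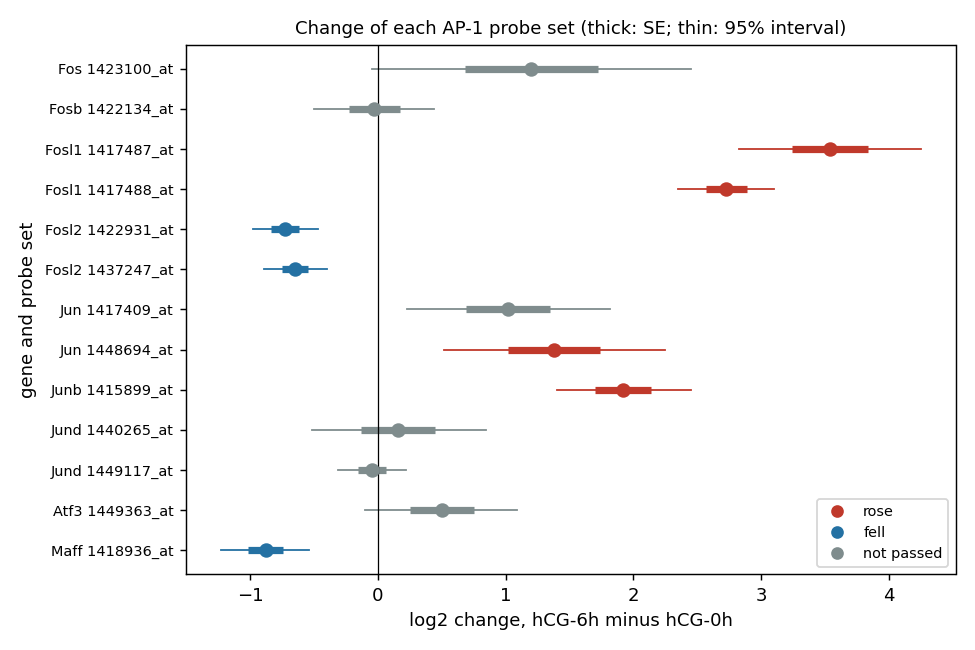
Log2 change from hCG-0h to hCG-6h (x axis) of each of the 13 AP-1 probe sets (y axis), with the SE as a thick bar and the 95% interval as a thin line, coloured by the call in the fit over all probe sets. The 2 Fosl1 probe sets lie at 2.73 and 3.54 and the 2 Fosl2 probe sets at -0.65 and -0.73, whereas the Jun probe sets straddle the threshold at 1.02 and 1.38.

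At the level of probe sets, 4 of 13 rose and 3 fell, beside 9.28% and 9.43% of all probe sets (18.7% in either direction). The members with 2 probe sets, namely Fosl1, Fosl2, Jun and Jund, share their transcripts between them, so probe sets are not independent counts. Both probe sets moved alike for Fosl1 and Fosl2, the Jun pair split around the threshold, and the Jund pair differed in sign with neither passing.

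The hCG-0h samples were not alike in these genes. In hCG-0h sample 3, 7 of 9 members had the lowest value of the group, all but Fosl1 and Fosl2, where 33.5% of all genes had theirs. Its level minus the mean of samples 1 and 2 was -1.99 for Fos, -1.23 for Jun, -0.74 for Junb, -0.62 for Fosb, -0.40 for Maff and -0.39 for Atf3. For Jund, Fosl1 and Fosl2 the differences were only -0.09, -0.04 and 0.13. The median over the members was -0.40, against -0.02 over all genes. Of all genes, 0.72% lay at least 1 unit low in that sample, as Fos and Jun did, and 5.3% at least 0.5 low, as 4 of 9 members did. Ordered by this difference, 8 genes, Fos among them, lay at or below the value of Fos and 68 at or below that of Jun.

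Across all genes hCG-0h sample 3 did not stand apart. Genes at least 1 unit away from the mean of the other 2 samples, in either direction, made up 1.59% in hCG-0h sample 3 and 1.31% to 1.64% in the other 5 samples. Mean levels of the cumulus and granulosa markers were 11.59, 11.56 and 11.61 in hCG-0h samples 1 to 3, and those of the stress chaperones, genes of heat and protein damage, 10.71, 10.81 and 10.57. Oocyte markers averaged 5.19, 5.20 and 5.00. The part of any of these in the low values was not tested.

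**Figure D3:**
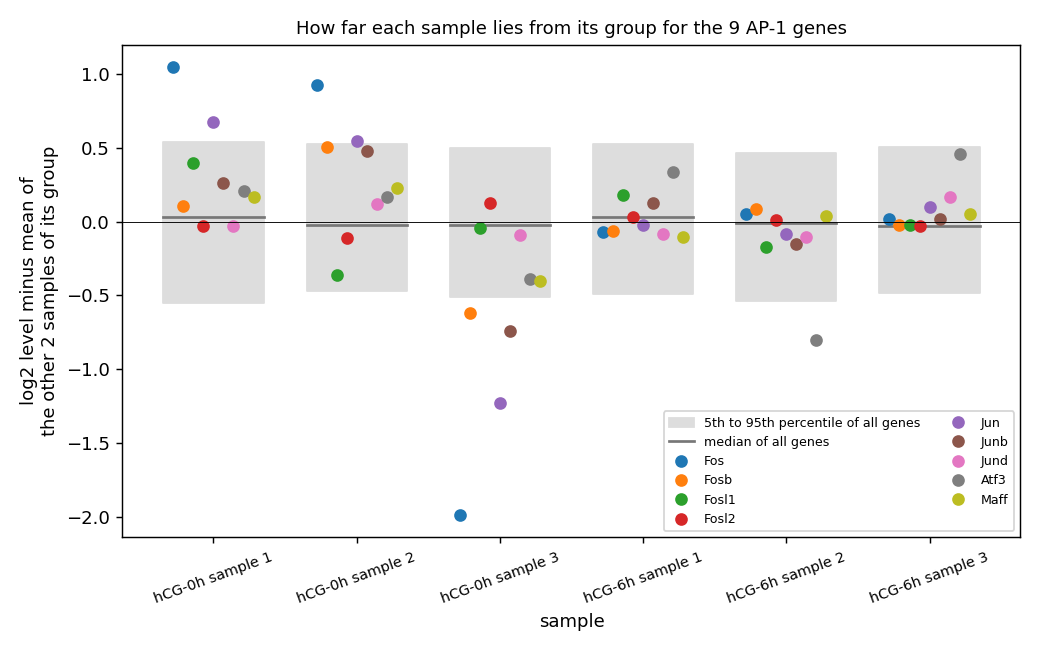
Log2 level of each AP-1 gene in a sample minus the mean of the other 2 samples of its group (y axis), for each of the 6 samples (x axis), over the 5th to 95th percentile range of all genes in grey. In hCG-0h sample 3, Fos (-1.99), Jun (-1.23), Junb (-0.74) and Fosb (-0.62) lie under the grey range, and in hCG-6h sample 2 Atf3 does (-0.80).

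The spread was wider before hCG than after. The SD at hCG-0h exceeded that at hCG-6h in 7 of 9 members, the exceptions being Jund and Atf3, and in 53.4% of all genes. The median SD of the members was 0.26 at hCG-0h and 0.06 at hCG-6h (n = 3 each), against 0.17 and 0.15 over all genes. In 5 of these 7 members, Fos, Fosb, Jun, Junb and Maff, sample 3 was the lowest of the hCG-0h group. In Fosl1 and Fosl2 it was not.

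**Figure D4:**
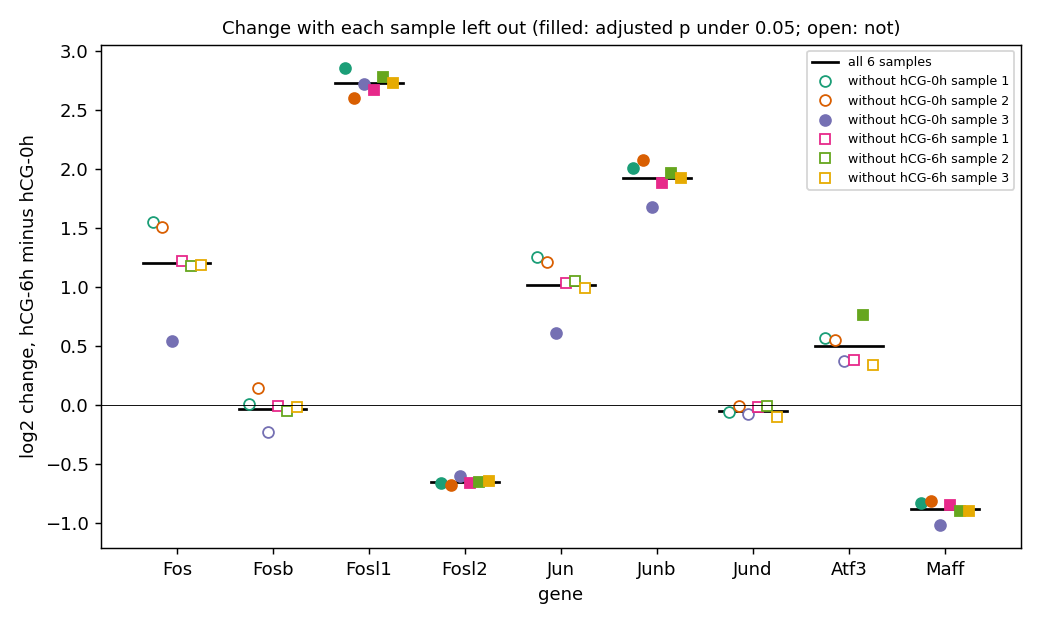
Log2 change of each AP-1 gene (y axis) with all 6 samples (line) and with each sample left out in turn (points, filled where the adjusted p was under 0.05). Without hCG-0h sample 3 the change of Fos drops from 1.20 to 0.54 and that of Jun from 1.02 to 0.61 while both pass, and Fosl1, Junb, Fosl2 and Maff pass in every case shown.

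Genes with the most similar profiles were sought for the 6 members whose values spanned at least 1 unit, by the root mean square difference between centred log2 values over the 6 samples. Nearest to Fos was Nfil3, a bZIP repressor, at a difference of 0.139, followed by Fam117a (0.218) and Csrnp1 (0.221), a nuclear protein gene of the immediate early kind. Nfil3 read 10.07, 9.92 and 8.39 before hCG and 10.57, 10.80 and 10.74 after, with hCG-0h sample 3 low again. For Jun the nearest were Egr1, the zinc finger immediate early factor (0.0993), Gdap2 (0.122) and Ccnf, the F-box cyclin (0.124). Those of Junb were Baiap2l1, Col12a1 and Cdkn2d, at 0.0918 to 0.123.

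Fosl1 kept other company. Runx1, a transcription factor of the ovulating follicle, lay nearest (0.0918), going from 9.22, 8.89 and 8.99 to 11.79, 11.81 and 11.80, then Parm1 (0.10) and Frmd5 (0.13). Maff, which fell, was nearest to Sema4d, a semaphorin (0.0482), Stat5a, a transcription factor downstream of cytokine receptors (0.0501), and Sirt3, the mitochondrial deacetylase (0.0803). Atf3 was nearest to Atp4a, F3, the tissue factor gene, and Flacc1, at 0.0824 to 0.105. With 3 samples in each of 2 groups, a gene with a similar change comes out near a member whose samples lay close within groups. Where 1 sample stood apart, a near gene also shared that shift. The genes named for Fos, Jun and Junb were all lowest of the hCG-0h group in sample 3. Those named for Atf3 were all lowest of the hCG-6h group in sample 2. Shared regulation was not tested.

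The dimer partners and relatives in the bZIP class went both ways. Of 20 measured genes 3 rose, 4 fell and 13 did not pass, beside 21.3% of all genes called, with a median change of -0.01. Crem, a cyclic AMP-responsive gene that yields the repressor ICER, read 6.85, 7.59 and 6.76 at hCG-0h and 10.24, 10.14 and 10.24 at hCG-6h, an 8.82-fold rise (limma adjusted p = 0.000187). Atf5 rose 2.11-fold and Nfe2l2, the antioxidant factor NRF2, 1.51-fold. The largest falls were those of Creb5, 3.10-fold lower, Mafk, another small MAF gene, 1.95-fold lower, and Atf2, a partner of JUN, 1.77-fold lower (limma adjusted p = 0.0393, 0.0158 and 0.00326). The fold of Creb5 is approximate, since its hCG-6h values of 5.62, 6.78 and 5.09 lay around the dim level of 6.08. Atf7, 1.49-fold lower, was the other that fell (named after its values were seen). Only 1 to 3 of these falls passed when each sample was left out in turn: of the 6 removals Creb5 passed in that of hCG-6h sample 2 only. Mafk was lost with the removal of sample 2 of either group or of hCG-6h sample 3, and Atf7 with that of hCG-0h samples 2 and 3 and hCG-6h samples 1 and 3, one at a time.

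Among kinases and factors that act upstream of AP-1 genes, 2 of 20 rose, 3 fell and 15 did not pass (median change 0.02), a share called near the 21.3% of all genes. Srf, the serum response factor that drives Fos from the CArG box, read 11.24, 11.16 and 10.95 at hCG-0h and 9.56, 9.70 and 9.55 at hCG-6h, and was 2.85-fold lower (limma adjusted p = 0.000259). Rps6ka5, the kinase MSK1, was 5.21-fold lower and Map3k1, a kinase above JNK, 2.80-fold lower. Elk3, an ETS partner of serum response factor, rose 1.86-fold, and Map2k2, the kinase MEK2, 1.32-fold. The call of Map2k2 was lost without any one sample other than hCG-6h sample 2. Of the JNK genes, none of which passed with all samples, Mapk8 and Mapk9 had log2 changes of -0.42 and 0.15. Mapk10 read 8.15, 9.89 and 8.71 before and 7.88, 7.45 and 7.18 after, with no overlap, a log2 change of -1.41 (limma adjusted p = 0.0632), and it passed when hCG-0h sample 1 was removed.

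Of 26 measured genes known as AP-1 targets elsewhere, 14 rose, none fell and 12 did not pass by limma (14 and 0 at an unadjusted p under 0.05). Beside them 10.8% of all genes were called higher and 10.5% lower. The median change was 0.73, against 0.0067 over all genes. The 3 largest rises were those of Ptgs2, Tnfaip6 and Plaur. Plaur, the urokinase receptor, read 6.49, 6.59 and 6.32 before and 10.74, 11.02 and 11.13 after. Tgfb1, the transforming growth factor, read 6.99, 6.67 and 6.33 before and 10.11, 10.22 and 10.39 after, an 11.9-fold rise (named after its values were seen). The matrix metalloproteinase genes differed within the list: Mmp14 rose 4.62-fold, whereas Mmp2, Mmp3, Mmp9, Mmp10 and Mmp13 did not pass, with log2 changes of 0.00 to 0.10. Mmp13 lay near the floor of the arrays, at 2.95 to 3.12 in all 6 samples. The hCG-0h and hCG-6h means of Mmp10 (5.77 and 5.77) and Mmp2 (5.92 and 6.01) lay under the dim level of 6.08. Those of Mmp3 (6.16 and 6.24) and Mmp9 (6.28 and 6.32) lay just above it. The same 14 target genes passed whichever one of the 6 samples was removed. Several genes of this list were known from these data to be higher at hCG-6h when it was drawn up, so its count is no independent evidence of a direction.

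Other immediate early genes mostly rose with all 6 samples. Of 24 measured, 16 rose, 1 fell and 7 did not pass, beside 10.8% of all genes called higher and 10.5% lower. The median change was 1.03, against 0.0067 over all genes. The largest rises were those of Dusp1, 8-fold, Egr3, 7.19-fold, and Ier5, 6.26-fold, and the one that fell was Myc, 5.23-fold lower. The size for Dusp1 rested on hCG-0h sample 3, without which its rise was 5.02-fold, smaller than those of Ier3 (6.64-fold), Egr3 (6.35-fold) and Ier5 (5.5-fold) in the same fit. In hCG-0h sample 3, 18 of the 24 had the lowest value of their group, beside 33.5% of all genes. The median difference from samples 1 and 2 was -0.60, against -0.02 over all genes. For Dusp1 the difference was -2.01, for Csrnp1 -1.47, for Egr2 -1.33 and for Ier2 -1.31 (the last 3 singled out after their values were seen). Leaving out a sample gave 8 to 14 rises, with 10, 9 and 8 without hCG-6h samples 1, 2 and 3. At an unadjusted p under 0.05, with all samples, 17 were higher and 2 lower. This list too was chosen with earlier results of these data known, so its count is no independent evidence of a direction.

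Genes tied to AU-rich elements, through which short-lived mRNAs such as that of Fos are degraded, are called decay factors here. Not all of them bind the element or speed decay. They showed 2 rises and 1 fall among 12 measured genes (median change -0.01), again near the 21.3% of all genes called. Zfp36, which encodes the decay factor tristetraprolin and is itself an immediate early gene, read 11.07, 10.99 and 9.36 at hCG-0h and 12.16, 12.17 and 12.19 at hCG-6h. It thus had the shape of Fos, with hCG-0h sample 3 lowest by 1.67 (limma adjusted p = 0.0351, a 3.25-fold rise). Its call was lost without any one of the hCG-6h samples. Zfp36l1 rose 1.88-fold and Tia1 was 1.55-fold lower, the latter lost without any one sample other than hCG-6h sample 1. None of the 10 stress chaperones was called in limma's fit, nor was any at an unadjusted p under 0.05.

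**Figure D5:**
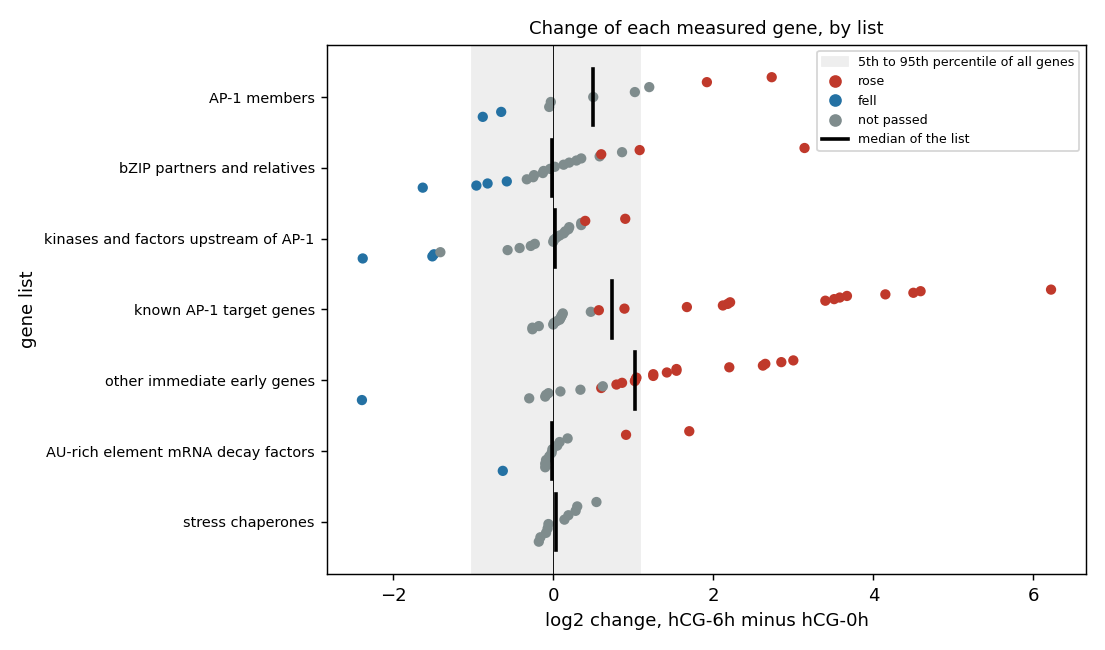
Log2 change from hCG-0h to hCG-6h (x axis) of every measured gene in the AP-1 members and 6 related lists (y axis), coloured by call, with the median of each list as a black bar and the 5th to 95th percentile range of all genes in grey. The AP-1 members spread from -0.88 (Maff) to 2.73 (Fosl1), the target genes and other immediate early genes extend to the right, and the stress chaperones lie within the grey range.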

How the data were processed

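The authors deposited log2 values for 45101 probe sets, 1 array per sample. Per the submitters' processing notes these came from GCOS, Affymetrix Expression Console 1.1 and RMA, which subtracts background, quantile-normalises arrays and summarises probes. RMA compresses folds of dim probe sets. No genome build was named there. Probe sets with several symbols (932) or none listed (9211) were left out. A gene with several probe sets was read from its brightest, by the mean of the 6 arrays. The fits used limma 3.58.1 in R 4.3.3 (lmFit, eBayes, group as the only term, no filter), two-sided, once over 18194 genes and once over 34958 probe sets. Array number limits precision. Named were all members, up to 3 rises and 3 falls of each list past the threshold, and the 3 nearest profiles (RIKEN, Gm and LOC names left out). Members and lists were chosen with earlier results of these data known. Some list members were not analysed here. The fit was tested on simulated data, 3 against 3 over 18194 genes, with 50 changed at each log2 size. It recovered 8% at 0.5, 54% at 1, 82% at 2 and 100% at 4, with 7 false among 129 calls. The real data gave 3874 calls. With fewer changed genes the adjustment is stricter, so these recoveries do not give the sensitivity of the real fit.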

Additional observations from a re-analysis of the deposited data

How the results depend on the processing

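The AP-1 counts kept within 1.5 times of those reported under the other normalisations, centring, variance model, dim-gene filter, array weights and probe set rules. When samples were removed one by one, 2 to 4 members rose and 2 fell, and 3 to 6 probe sets rose and 3 fell. With hCG-6h sample 1 alone, which leaves that group 1 sample assumed to vary like the others, 0 members fell, 2 probe sets rose and 0 fell, and over all genes 810 rose and 767 fell. Jun passed with a trend and robust variance (limma adjusted p = 0.0371), with the mean of its probe sets (0.0388) and with the most variable one (0.0419). Signs turned, never past the threshold, for Fosb without hCG-0h sample 1 or 2 (0.01 and 0.14, in a range of -0.23 to 0.14), for Jund with the mean of its probe sets or the most variable one (0.06 and 0.16), and for the dim Jund probe set without hCG-0h sample 3 or hCG-6h sample 3 (-0.01 and -0.06, in a range of -0.06 to 0.42) and with hCG-6h sample 1 alone (-0.15). Same-numbered samples did not deviate together (r across genes of 0.011, -0.016 and 0.029), so no pairing by number was visible. Such correlations cannot exclude that same-numbered samples were handled together. With the replicate block 2 members rose and 2 fell, 3 probe sets rose, the second Jun probe set being lost (adjusted p = 0.0556), 1 upstream gene rose and 0 decay factors fell.

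In the lists, leaving out each sample gave 3 to 4 rises and 1 to 3 falls of bZIP relatives, 1 to 2 and 3 to 4 of upstream genes, 14 and 0 of targets, 8 to 14 and 1 of other immediate early genes, and 1 to 2 and 0 to 1 of decay factors. With hCG-6h sample 1 alone, 1 bZIP relative rose and 2 fell, 0 upstream genes rose, 4 immediate early genes rose, and 0 decay factors rose and 0 fell. A trend and robust variance gave 5 rises of bZIP relatives and 2 falls of chaperones. The mean of probe sets gave 6 falls of upstream genes, 1 of targets (1 also with the most variable probe set), 2 of decay factors and 2 of immediate early genes, and 2 of the latter fell with quantile normalisation again, with centred medians and without the dimmest genes. The cause was not tested. Members lowest in hCG-0h sample 3 numbered 7 to 8 over the settings tried, and the median difference was -0.39 to -0.51.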
